A study of Rattus norvegicus with 10 samples.

Results

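The genes of the Fos and Jun families encode the subunits of activator protein 1 (AP-1), and 9 of them were looked up on the arrays: Fos, Fosb, Fosl1 and Fosl2 of the Fos family, Jun, Junb and Jund of the Jun family, and the related factors Atf3 and Batf. Members were the probe sets whose annotation gives exactly 1 gene symbol from this list, and for a gene with several the probe set of highest mean over the 10 arrays was taken. By this rule, 8 of the 9 genes had a probe set, among 16941 genes tested in all, and Fosl2 is named only. All 8 passed the filter on low values described below.

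AP-1 is a dimer of basic leucine zipper proteins. A Fos protein cannot pair with itself and needs a Jun protein, whereas Jun proteins also pair among themselves, and the dimer binds a short palindrome in DNA, the TPA response element (TRE), or the related cAMP response element (CRE). In neurons Fos, Fosb and Junb are immediate early genes, transcribed within minutes of synaptic activity through kinases that act on SRF and CREB, and their mRNA is short-lived. Jund is expressed more steadily, and in rodents a truncated product of Fosb, delta FosB, is known for its long life as a protein.

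The prefrontal cortex (PFC) was taken from adult male Sprague–Dawley rats, with 1 whole-transcript array per rat. The 5 rats of the Stress group received inescapable footshock (FS) in a session of 40 min, of which shock of 0.8 mA filled 20 min, went back to their home cages and were killed 24 h after the session began. The 5 rats of the Control group remained in the home cage without a session, so shock and the surroundings of the session differ between the groups together. No genetic change was used, and each sample is bulk tissue that pools the areas of the PFC.

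The deposited values are log2 intensities from RMA, a method that subtracts background, brings the arrays to a common distribution and summarises all probes for a transcript as 1 number. A value of a probe set is here called its level. Levels can be compared between rats, but not between genes, because probes differ in how well they bind. Log2 fold changes are the mean of FS rats minus that of controls, from limma over 18304 probe sets, those that carry 1 symbol and average above 4, with Benjamini–Hochberg adjustment over all of them. Arrays correlated with one another at 0.994 to 0.997. Of the markers of cortical excitatory neurons, 8 of 9 were tested, and their mean, centred per gene, lay between -0.093 and 0.072 in controls and between -0.12 and 0.099 in FS rats. Choroid plexus markers (10 of 10 tested) had a centred mean of 1.81 in FS replicate 2 and between -0.36 and 0.11 in the other 9 rats. The centred mean of the striatal medium spiny neuron markers (10 of 12 tested) ran from -0.56 to 0.55 in controls and from -0.56 to 0.22 in FS rats. In bulk tissue, fewer cells of a type and less RNA per cell cannot be told apart.

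Promoter sequences were at hand for 6 of the 9 genes, from RefSeq on the assembly GRCr8. Those of Junb and Jund are shown, because Junb varied together with Fos from rat to rat and Jund, of the same family, had an r with Fos near 0 over all rats (below). Each sequence is the stretch of 250 bases before the annotated start of the gene, 5′ to 3′ on the strand of the gene, Junb at chr19:40080876-40081125 on the plus strand and Jund at chr16:18769772-18770021 on the minus strand. Capitals mark the CRE (TGACGTCA), its core TGACG on either strand, which is also part of the whole CRE, CCAAT on either strand and TATAAA on the strand of the gene.
Junb: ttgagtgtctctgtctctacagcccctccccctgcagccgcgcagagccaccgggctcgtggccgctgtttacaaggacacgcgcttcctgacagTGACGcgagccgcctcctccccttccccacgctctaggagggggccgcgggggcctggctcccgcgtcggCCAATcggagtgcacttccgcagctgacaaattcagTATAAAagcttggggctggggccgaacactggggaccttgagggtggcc
Jund: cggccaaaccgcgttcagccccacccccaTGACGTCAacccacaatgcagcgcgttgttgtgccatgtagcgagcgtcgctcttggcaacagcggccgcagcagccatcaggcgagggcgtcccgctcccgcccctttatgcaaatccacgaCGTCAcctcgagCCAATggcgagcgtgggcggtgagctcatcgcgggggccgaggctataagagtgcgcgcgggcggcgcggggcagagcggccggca

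Counted from the start of the gene, the stretch of Jund holds a whole CRE from -221 to -214 and a core from -98 to -94. That of Junb holds a core from -155 to -151 and a TATAAA from -49 to -44, and no whole CRE. Among 33469 promoters of the table, in windows of 300 bases (250 before and 50 after the start), 1.83% hold the CRE, 21.2% its core, 37.5% CCAAT and 8.80% TATAAA. The TRE (TGACTCA on either strand, 4.63% of promoters) and the CArG box, the site of SRF (1.64%), were in none of the 6 windows of Fosb, Fosl1, Fosl2, Junb, Jund and Batf. A match is a description of the letters and not a measured site, and where a site lies outside the window it is not seen here.

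The first question was whether any AP-1 gene differed 24 h after FS. The levels of all 8 genes overlapped between FS rats and controls, and none passed the threshold. Atf3 had the largest difference among them and was 1.17-fold higher in FS rats, with 4 controls below every FS rat and 1 control above them all. Jund, Jun, Fos, Batf and Junb had positive and Fosl1 and Fosb negative fold changes of less than 0.10 on the log2 scale, and that of Batf was -0.000514 after quantile normalization. In limma over all 18304 probe sets, 0 of the 8 genes had an adjusted p under 0.05, as for 0% of all probe sets, and the smallest adjusted p of a member was 0.456. At an unadjusted p under 0.05 there was 1 member, Atf3, against 9.84% of all probe sets, with 5.75% higher in FS rats and 4.09% lower. That split depends on the scaling, since 1053 of 1802 such probe sets were higher as deposited, 762 of 1585 after quantile normalization and 1287 of 1862 with each array centred on its median. The groups were apart in 0 of the 8 members and in 1.94% of all probe sets. Of the members, 6 of 8 had a fold change above 0, with a median of 0.055, and of all probe sets 50.3%, with a median of 0.00044.

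**Figure D1:**
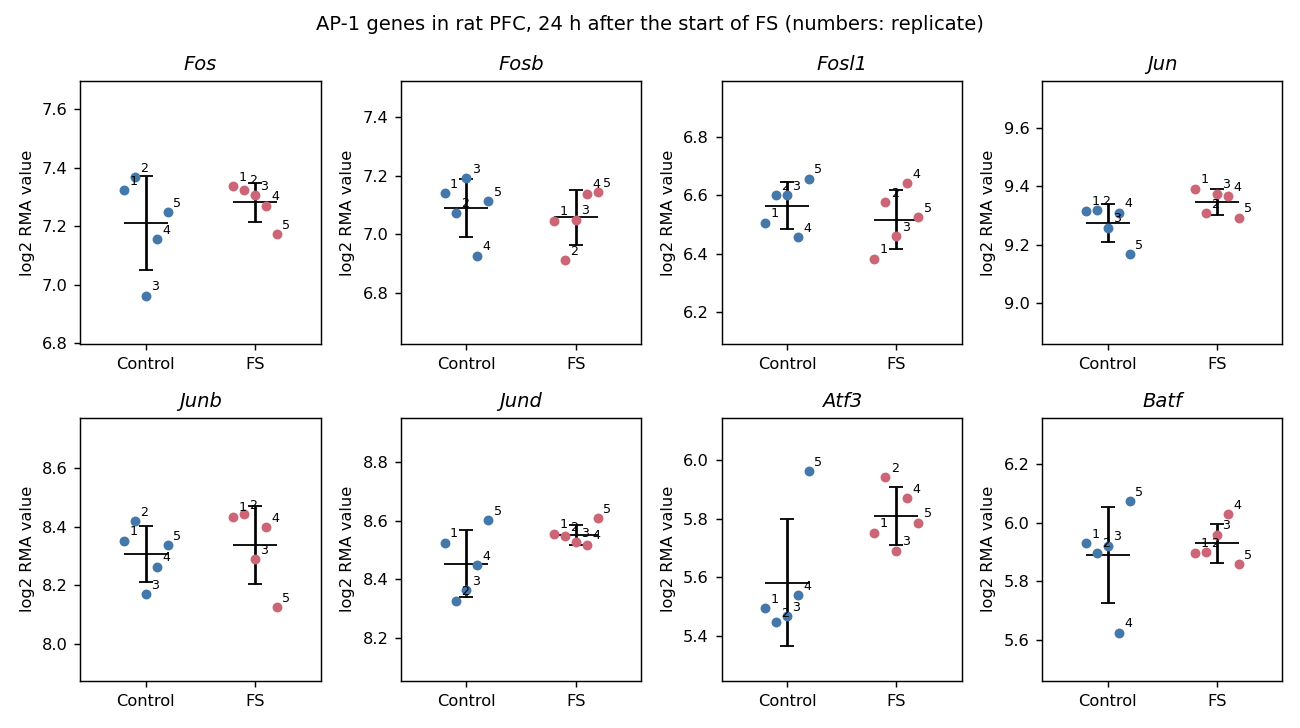
Level (log2 RMA value) of the 8 AP-1 genes in each rat, controls in blue and FS rats in red, with the replicate number beside each point. Horizontal bars are the group means and error bars the SD (n = 5), and every panel spans the same range of log2 units; control replicate 5 stands apart for Atf3 (5.96 against 5.45 to 5.54 in the other controls).

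Fos encodes c-Fos, the subunit most used as a marker of recently active neurons. Its level was 7.32, 7.37, 6.96, 7.16 and 7.25 in control replicates 1 to 5. In FS replicates 1 to 5 it was 7.34, 7.32, 7.31, 7.27 and 7.17. Control replicate 3 was the lowest of the 10 rats and control replicate 2 the highest, so the FS rats lay within the range of the controls. Controls averaged 7.21 ± 0.16 (SD, n = 5) and FS rats 7.28 ± 0.066 (SD, n = 5). The difference was 0.071 on the log2 scale, with a standard error (SE) of 0.070 and a 95% interval from -0.081 to 0.22 (limma adjusted p = 0.760). Without control replicate 3 the log2 fold change was 0.0082, and without control replicate 2 it was 0.11. The upper end of the interval over all rats is a 1.17-fold difference.

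Fosb, whose products include FosB and delta FosB, did not rank the rats as Fos did. Its level was 7.14, 7.07, 7.19, 6.93 and 7.11 in control replicates 1 to 5, and 7.05, 6.91, 7.05, 7.14 and 7.14 in FS replicates 1 to 5. The rat with the lowest Fos, control replicate 3, had the highest Fosb, and both groups spanned nearly the same range. The log2 fold change was -0.031 (SE 0.058, 95% interval -0.16 to 0.094, limma adjusted p = 0.879), and it was 0.0052 without FS replicate 2. The files give 1 probe set for Fosb, so its full-length and truncated transcripts are not told apart. Fosl1 encodes Fra-1, a Fos protein without the strong activation domain of c-Fos. Its level ran from 6.46 to 6.66 in controls (median of 5 rats 6.60) and from 6.38 to 6.64 in FS rats (median 6.52), with a log2 fold change of -0.047 (SE 0.055, limma adjusted p = 0.805).

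Jun encodes c-Jun, the main partner of Fos proteins and a substrate of the JNK kinases. Its level was 9.32, 9.32, 9.26, 9.31 and 9.17 in control replicates 1 to 5, and 9.39, 9.31, 9.37, 9.37 and 9.29 in FS replicates 1 to 5. All 5 FS rats lay above the control mean of 9.27, but FS replicates 2 and 5 lay below the highest controls. Jun varied little, and 17.7% of all probe sets had a smaller SD within groups (0.055 for Jun). The log2 fold change was 0.073 (SE 0.041, 95% interval -0.015 to 0.16, limma adjusted p = 0.568), and an exact permutation test of the group means gave a two-sided p = 0.0794, where the smallest possible is 0.00794.

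Junb, which can dampen activation by c-Jun, is itself an immediate early gene. Its level was 8.35, 8.42, 8.17, 8.26 and 8.34 in control replicates 1 to 5, and 8.43, 8.44, 8.29, 8.40 and 8.13 in FS replicates 1 to 5. The lowest rat was FS replicate 5 and the next lowest control replicate 3, while FS replicates 1, 2 and 4 were among the highest 4 rats with control replicate 2. The log2 fold change was 0.030 (SE 0.066, 95% interval -0.11 to 0.17, limma adjusted p = 0.903), at 0.083 without FS replicate 5 and -0.0051 without control replicate 3.

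Jund, which is not an immediate early gene in most cells, was at 8.52, 8.33, 8.36, 8.45 and 8.60 in control replicates 1 to 5, and at 8.55, 8.55, 8.53, 8.52 and 8.61 in FS replicates 1 to 5. The FS rats lay close together (SD 0.035, n = 5), whereas the controls were spread more widely (SD 0.11, n = 5). All FS rats lay above the control mean of 8.45, with control replicate 5 next to the highest of them. The log2 fold change was 0.098 (SE 0.052, 95% interval -0.015 to 0.21, limma adjusted p = 0.546; exact permutation test, two-sided, p = 0.111). A further probe set of Jund was dimmer, at 6.46 to 6.60 over all rats, with a log2 fold change of 0.015 (SE 0.037, limma adjusted p = 0.911). The probe sets had a correlation of 0.312 over the rats (Spearman's rho 0.285, exact permutation p = 0.600 for r), so the difference seen with the brighter probe set was not seen with the dimmer one.

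Atf3, a stress-induced factor that pairs with Jun proteins and can act as a repressor, was at 5.50, 5.45, 5.47, 5.54 and 5.96 in control replicates 1 to 5. In FS replicates 1 to 5 it was at 5.75, 5.94, 5.69, 5.87 and 5.79. Thus control replicate 5 exceeded every FS rat, and the other 4 controls lay below every FS rat. Controls averaged 5.58 ± 0.22 (SD, n = 5) and FS rats 5.81 ± 0.099 (SD, n = 5). The difference was 0.23 on the log2 scale, with a standard error of 0.091 and a 95% interval from 0.029 to 0.42 (limma unadjusted p = 0.0278, adjusted p = 0.456; exact permutation test, two-sided, p = 0.0714). Without control replicate 5 the log2 fold change was 0.32 with an adjusted p of 0.105 in limma, and leaving out any other rat gave values down to 0.19. The probe set is dim, with 11.8% of all probe sets dimmer, and the files hold no detection calls.

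Control replicate 5, the rat with the highest Atf3, also had the highest level of interferon-stimulated genes. This list was added after the values were seen, and 25 of its 27 genes were tested. Its mean, centred per gene, was 0.76 in control replicate 5 and between -0.22 and -0.074 in the other controls. In FS rats it was 0.29 in replicate 5 and between -0.17 and -0.061 in the other 4. FS replicate 2, with the highest Atf3 of the FS rats, was at -0.061, and FS replicate 5, with the highest interferon-stimulated genes among the FS rats, was in the middle of them for Atf3. Among cell type markers, Atf3 had its lowest correlation with those of cortical excitatory neurons (r = -0.678, exact permutation p = 0.0135, rho = -0.503, exact permutation p = 0.155; adjusted p = 0.339 for r over 80 relations), and without the rats farthest out on that list, control replicate 5 and FS replicate 2, r was -0.260. Markers of meningeal fibroblasts (10 of 10 tested) were highest in FS replicate 2, at 0.83, with the other FS rats between -0.43 and -0.058 and the controls between -0.075 and 0.15. Their r with Atf3 was 0.397 (exact permutation p = 0.0449, rho = 0.394, exact permutation p = 0.222, adjusted p = 0.503), and without FS replicates 2 and 4 it was 0.720 (exact permutation p = 0.0139). Microglia and macrophage markers (11 of 11 tested) had r = 0.611 with Atf3 (exact permutation p = 0.191, rho = 0.576, exact permutation p = 0.105, adjusted p = 0.654), and r = 0.365 without control replicates 2 and 5. Astrocyte markers (7 of 8 tested) had r = 0.369 (exact permutation p = 0.264, rho = 0.733, exact permutation p = 0.0231, adjusted p = 0.654 for r), and without control replicate 4 and FS replicate 5 r was 0.905 (exact permutation p = 0.00174). None of the Atf3 relations with a list passed the adjustment. Without FS replicate 2, the rat with the choroid plexus signal, Atf3 was still 0.19 higher in FS rats on the log2 scale (adjusted p = 0.554 in limma). The part of interferon-stimulated genes or of cell types in the difference of Atf3 was not tested.

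Batf, best known in lymphocytes, where it pairs with Jun proteins and IRF4, was at 5.93, 5.90, 5.92, 5.62 and 6.07 in control replicates 1 to 5, and at 5.90, 5.90, 5.96, 6.03 and 5.86 in FS replicates 1 to 5. The FS rats lay between the lowest and the highest control. The log2 fold change was 0.039 (SE 0.070, 95% interval -0.11 to 0.19, limma adjusted p = 0.878), and it was -0.027 without control replicate 4. Its probe set is dim as well (14.4% of all probe sets dimmer). In the assembly GRCr8, Jdp2, a repressor of AP-1, is the 1 protein-coding gene between Fos and Batf. The log2 fold change of Jdp2 was -0.0069 (SE 0.046, limma adjusted p = 0.974).

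**Figure D2:**
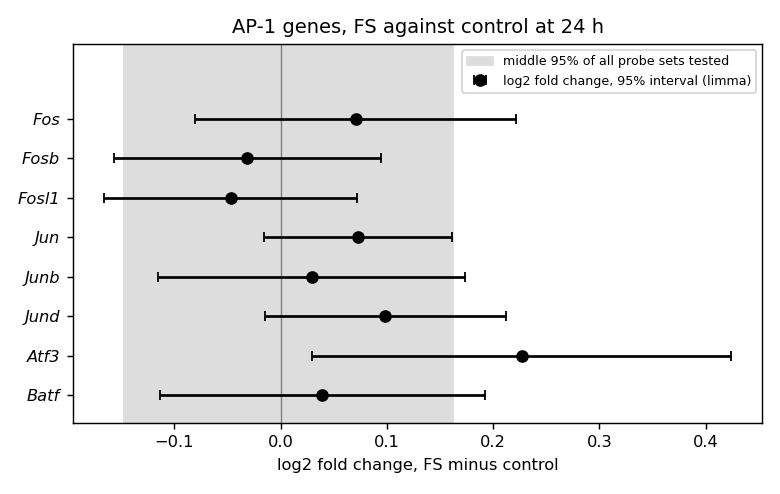
Log2 fold change (FS minus control) of each AP-1 gene at 24 h, with its 95% interval from limma (n = 5 and 5). The grey band holds the middle 95% of the log2 fold changes of all probe sets tested (-0.15 to 0.16). Atf3 (0.23) lies outside it, and the other 7 genes lie inside. The band takes no account of spread. Of all probe sets, 94.2% had a smaller SD within groups than Atf3, and 6.08% had a smaller unadjusted p in limma.

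With each gene taken alone, the intervals of the 8 genes set limits on what the arrays could have missed. They are not adjusted for the number of genes tested. For Fos, Fosb, Fosl1, Jun, Junb, Jund and Batf, the upper ends lay between 1.05-fold (Fosl1) and 1.17-fold (Fos), and the lower ends between 0.891-fold (Fosl1) and 0.990-fold (Jund). For Atf3 the interval ran from 1.02-fold to 1.34-fold, although its adjusted p in limma was 0.456. These are fold changes of array intensities, which are compressed for dim probe sets such as those of Fosl1, Atf3 and Batf. They set no limit on a change in a subset of the cells.

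The second question was which AP-1 genes varied together from rat to rat. Of all pairs, Fos and Junb had the highest correlation. The lowest 3 rats were the same for both, control replicates 3 and 4 and FS replicate 5, and both were high in control replicate 2 and FS replicates 1 and 2. Fosb had a negative r with both, and none of Fosb, Fosl1, Jun, Jund, Atf3 and Batf passed the threshold with Fos. Correlations were computed over the 10 rats after subtraction of the group means, for 28 pairs, and tested by exact permutation within groups (14400 orders, two-sided) with Benjamini–Hochberg adjustment over the 28 pairs. Fos and Junb had r = 0.803 (exact permutation p = 0.00125, adjusted p = 0.035) and rho = 0.818 (exact permutation p = 0.00403, adjusted p = 0.113). Within the groups of 5, r was 0.985 in controls and 0.879 in FS rats. Without control replicates 3 and 4, the rats farthest from the median of Fos, r was 0.827 (exact permutation p = 0.025, adjusted p = 0.531). Leaving out each rat in turn kept r between 0.765 and 0.846, and the adjusted p ran from 0.0194 to 0.175, under 0.05 without FS replicates 3 or 4 only. With the replicate number as a block r was 0.651 (adjusted p = 0.793), and after quantile normalization 0.719 (adjusted p = 0.138). The block leaves 5 differences between same-numbered rats, so few orders are possible and a single pair can hardly pass.

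**Figure D3:**
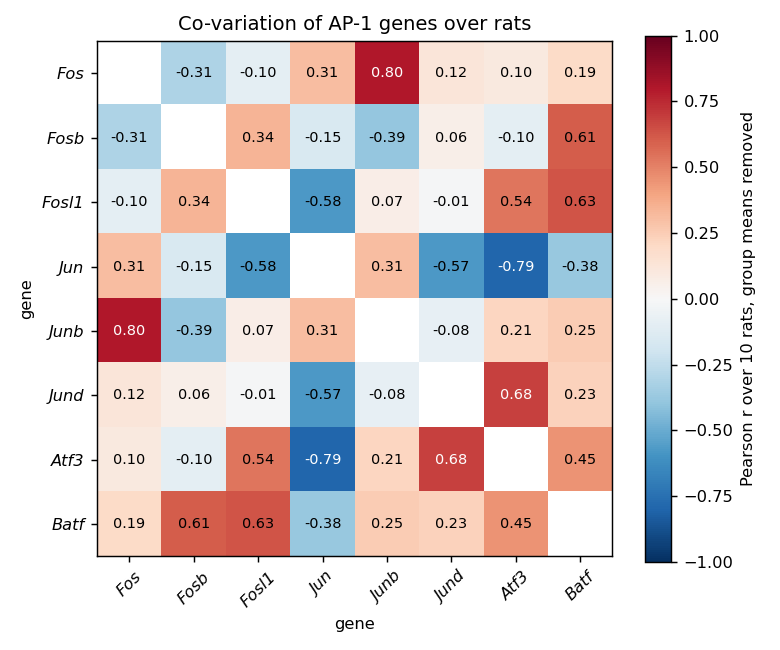
Pearson correlation of each pair of AP-1 genes over the 10 rats, after removal of group means (colour and printed value, from -1 to 1). Fos with Junb (0.80) is the highest of the 28 pairs and Jun with Atf3 (-0.79) the lowest.

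Among the other 27 pairs, 0 passed the adjustment and 2 had an unadjusted p under 0.05. Jun and Atf3 ran opposite to each other (r = -0.791, exact permutation p = 0.0397, adjusted p = 0.371, rho = -0.661, exact permutation p = 0.0515). That relation rested on the rats farthest from the median of Jun, control replicate 5, which had the lowest Jun and the highest Atf3, and FS replicate 1, since r was -0.270 without them (exact permutation p = 0.589). Fosl1 and Batf, both with dim probe sets, had r = 0.631 (exact permutation p = 0.0315, adjusted p = 0.371, rho = 0.624, exact permutation p = 0.062), and r = 0.594 without control replicate 5 and FS replicate 1 (exact permutation p = 0.130). Fos and Fosb had r = -0.310 (exact permutation p = 0.443, adjusted p = 0.854, rho = -0.479, exact permutation p = 0.217), and without control replicates 3 and 4 r was -0.633 (exact permutation p = 0.143). Fos and Jun had r = 0.307 (exact permutation p = 0.504, rho = 0.552, exact permutation p = 0.127; adjusted p = 0.883 for r), and r = 0.712 without the same rats (exact permutation p = 0.0569). Fosb and Junb had r = -0.388 (exact permutation p = 0.281, rho = -0.564, exact permutation p = 0.114; adjusted p = 0.810 for r). In all, 17 of the 28 pairs had a positive and 11 a negative r, with a median of 0.108, so the 8 genes did not all vary together. Fos and Jund had r = 0.121 (exact permutation p = 0.829, rho = 0.139, exact permutation p = 0.734; adjusted p = 0.939 for r), which turned to -0.665 without control replicates 3 and 4 (exact permutation p = 0.0556). Fos and Batf, near neighbours on chromosome 6, had r = 0.194 (exact permutation p = 0.719, rho = 0.139, exact permutation p = 0.749; adjusted p = 0.939 for r).

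Fos and Junb were next compared with 23 other genes that neuronal activity induces. Both followed the mean of this list, which was 0.14, 0.15, -0.11, -0.065 and -0.010 in control replicates 1 to 5 and 0.022, 0.057, -0.058, -0.049 and -0.070 in FS replicates 1 to 5. Control replicates 1 and 2 were the highest for the list and among the highest for Fos, and control replicate 3 was the lowest for both. The mean was centred but not scaled per gene. Genes of wide range such as Arc (8.03 to 9.22) therefore weigh more in it than Egr4 (8.16 to 8.35). Arc, Nr4a1 and Dusp1, taken up below, are part of the list. For Fos r was 0.882 (exact permutation p = 0.00187, rho = 0.939, exact permutation p = 0.00257), and for Junb it was 0.739 (exact permutation p = 0.00493, rho = 0.867, exact permutation p = 6.94e-05, the smallest these permutations can give). Adjusted over the 80 relations of 8 genes with 10 list means, p was 0.150 for Fos and 0.197 for Junb, so 0 of the 80 passed, while 7 had an unadjusted exact permutation p under 0.05. Beside these and Atf3 with the markers of cortical neurons and meninges, they were Jund with microglia and astrocyte markers and Fosb with endothelial and mural markers. Without control replicates 1 and 2, the rats farthest out on the list, r was 0.768 for Fos (exact permutation p = 0.0236) and 0.809 for Junb (exact permutation p = 0.0306). For Jund r was 0.793 with microglia and macrophage markers (exact permutation p = 0.0303, adjusted p = 0.405, rho = 0.721, exact permutation p = 0.057), and 0.456 without control replicates 2 and 5. With astrocyte markers it was 0.624 (exact permutation p = 0.0169, adjusted p = 0.339, rho = 0.624, exact permutation p = 0.0753), and 0.872 without control replicate 4 and FS replicate 5 (exact permutation p = 0.033). Fosb and the endothelial and mural markers (9 of 11 tested) had r = -0.688 (exact permutation p = 0.0269, adjusted p = 0.405, rho = -0.467, exact permutation p = 0.203), and -0.389 without FS replicates 2 and 4. The part of these cell types in the levels of Jund and Fosb was not tested. With the activity-induced list, the correlation of Fosb was -0.198 (exact permutation p = 0.668, rho = -0.345, exact permutation p = 0.404), and that of Jun was 0.312 (exact permutation p = 0.523, rho = 0.442, exact permutation p = 0.241).

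**Figure D4:**
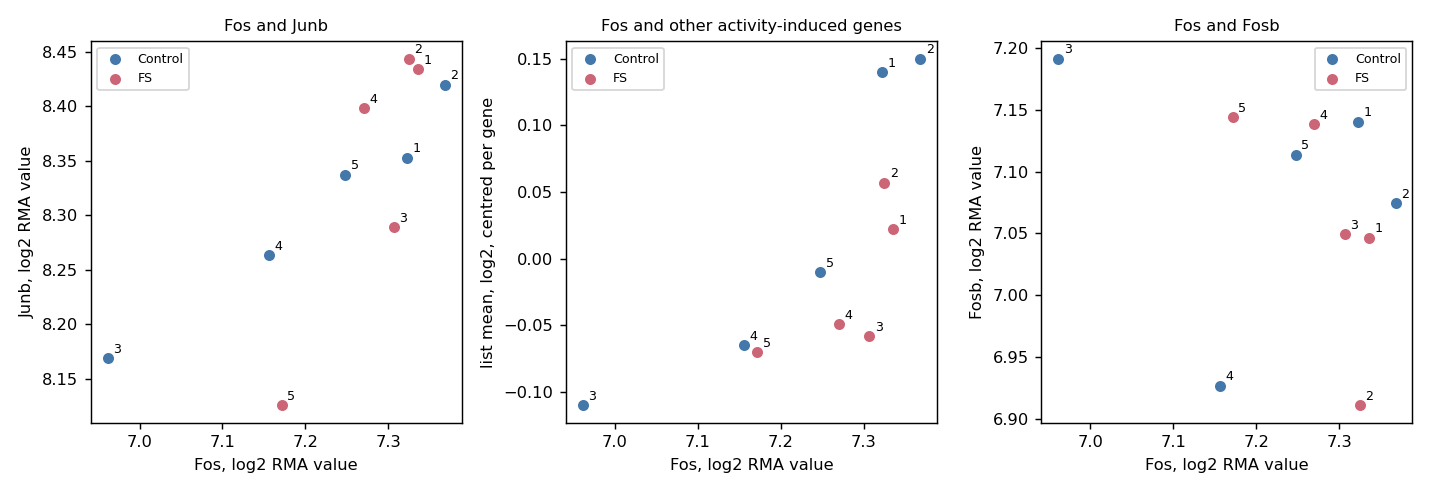
Level of Fos in each rat (horizontal axes, log2 RMA value) against Junb, against the mean of 23 other activity-induced genes (log2, centred per gene) and against Fosb, controls in blue and FS rats in red with replicate numbers. Junb and the list rise with Fos in both groups, while Fosb does not (r = 0.803, 0.882 and -0.310 with group means removed).

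In single genes of that list, Arc, Nr4a1 and Dusp1 were the ones that passed with Fos or Junb, over 46 relations. These single-gene relations were not planned at the outset. Only Fos and Junb, which followed the list mean, were tested in this way, and the adjustment over 46 relations does not cover the other members. Arc, Nr4a1 and Dusp1 are named after their values were seen. Arc encodes a protein of the postsynapse that regulates AMPA receptors, Nr4a1 an orphan nuclear receptor, and Dusp1 a phosphatase that switches MAP kinases off. Arc was at 9.22, 9.22, 8.03, 8.35 and 8.42 in control replicates 1 to 5 and at 8.74, 9.07, 8.36, 8.43 and 8.06 in FS replicates 1 to 5. Its range was wider than that of Fos in log2 units. Control replicates 1 and 2 were the highest for Arc, and control replicate 3 and FS replicate 5 the lowest. Arc had r = 0.862 with Fos (exact permutation p = 0.00187, adjusted p = 0.0307, rho = 0.939, exact permutation p = 0.000972) and r = 0.824 with Junb (exact permutation p = 0.00292, adjusted p = 0.0307, rho = 0.879, exact permutation p = 6.94e-05).

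Nr4a1 was at 8.63, 8.65, 8.09, 8.03 and 8.32 in control replicates 1 to 5 and at 8.52, 8.42, 8.34, 8.27 and 7.86 in FS replicates 1 to 5. FS replicate 5 was the lowest rat, as for Junb. The correlation was 0.843 with Fos (exact permutation p = 0.00229, adjusted p = 0.0307, rho = 0.927, exact permutation p = 0.000833) and 0.862 with Junb (exact permutation p = 0.00333, adjusted p = 0.0307, rho = 0.806, exact permutation p = 0.0041). Dusp1 was at 9.74, 10.01, 9.51, 9.61 and 9.60 in control replicates 1 to 5 and at 10.02, 10.34, 9.94, 9.98 and 9.46 in FS replicates 1 to 5, so that 4 of 5 FS rats lay above 4 of 5 controls, and FS replicate 5 was the lowest of all. It had r = 0.894 with Junb (exact permutation p = 0.000139, adjusted p = 0.00639, rho = 0.927, exact permutation p = 0.000139) and r = 0.679 with Fos (exact permutation p = 0.00674, adjusted p = 0.0516, rho = 0.818, exact permutation p = 0.00569). Between the groups these 3 genes did not pass in limma, with log2 fold changes of -0.12 for Arc (standard error 0.24, adjusted p = 0.895), -0.066 for Nr4a1 (standard error 0.14, adjusted p = 0.901) and 0.25 for Dusp1 (standard error 0.14, adjusted p = 0.559).

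Without the rats farthest from the median of each member, control replicates 3 and 4 for Fos and control replicate 3 and FS replicate 5 for Junb, r was 0.847 for Fos with Arc (exact permutation p = 0.0236) and 0.977 for Fos with Nr4a1 (exact permutation p = 0.00139). For Fos with Dusp1 it was 0.889 (exact permutation p = 0.0125). With Junb it was 0.767 for Arc (exact permutation p = 0.0243), 0.704 for Nr4a1 (exact permutation p = 0.0608) and 0.742 for Dusp1 (exact permutation p = 0.066). Leaving out 1 rat at a time kept all 6 of these correlations between 0.580 and 0.985. Without FS replicate 1 or FS replicate 5, however, all 6 had an adjusted p above 0.05, from 0.0639 to 0.0772 and from 0.144 to 0.272 by exact permutation. Junb with Dusp1 passed without any other rat left out. Arc with Fos and with Junb was also lost without control replicates 1, 2 or 3, Nr4a1 with Fos without control replicates 1, 2 or 5, and Nr4a1 with Junb without any of the controls, while Fos with Dusp1 passed only without FS replicate 2. After quantile normalization Nr4a1 with Fos, Arc with Junb and Nr4a1 with Junb were lost (adjusted p = 0.0633 each by exact permutation), and Arc with Fos and Dusp1 with Junb passed. With the group means kept, 0 of the 6 passed, at adjusted p-values from 0.0716 to 0.125 by permutation over 100000 random orders. With the replicate number as a block, 0 of the 6 passed, with r from 0.543 to 0.964 (adjusted p from 0.329 to 0.876 by exact permutation). Few orders are possible with the block, and even r = 0.964, for Junb with Dusp1, had an adjusted p of 0.329 by that test. The block therefore cannot decide on these relations.

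Not every activity-induced gene followed Fos. Of the 23 genes, 20 had a positive r with Fos and 19 with Junb, with medians of 0.403 and 0.267, where the medians over all genes were 0.0018 and -0.022. An r above 0.7 was reached by 3 of 23 with Fos and 3 of 23 with Junb, and by 1.48% and 1.19% of all genes. Egr1, an immediate early transcription factor, had r = 0.848 with Fos (exact permutation p = 0.0198, adjusted p = 0.130, rho = 0.661, exact permutation p = 0.107), but r was 0.980 within controls and -0.403 within FS rats. Without control replicates 3 and 4 it was 0.298 (exact permutation p = 0.504), so the relation rested on these rats. Egr2, Vgf and Inhba, named after their values were seen, also changed sign with Fos. Their r was 0.806, 0.97 and 0.533 within controls and -0.673, -0.365 and -0.84 within FS rats. With Junb it was 0.785, 0.916 and 0.491, and -0.913, -0.725 and -0.927. Arc, Nr4a1 and Dusp1 had a positive r with both members in both groups. The counts over all rats therefore do not describe the FS rats alone. These differences between the groups were not tested. Bdnf, the neurotrophin, had r = -0.120 with Fos (exact permutation p = 0.795, rho = 0.103, exact permutation p = 0.801).

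Markers of other tissue and cell types were set beside Fos and Junb, and none of these relations passed. Striatal neurons express Arc, Fos and Nr4a1 too, and the striatal marker list had r = 0.508 with Fos (exact permutation p = 0.249, rho = 0.612, exact permutation p = 0.125) and r = 0.460 with Junb (exact permutation p = 0.165, rho = 0.576, exact permutation p = 0.0853), at adjusted p-values of 0.654 and 0.630 over the 80 relations. Without control replicate 5 and FS replicate 3, the rats lowest on that list, r was 0.922 for Fos (exact permutation p = 0.00521) and 0.669 for Junb (exact permutation p = 0.0226). Control replicate 3, the lowest rat for Fos, was also the lowest for oligodendrocyte markers (8 of 9 tested), at -0.353 against 0.037 to 0.19 in the other controls, and the FS rats ran from -0.16 to 0.093. The oligodendrocyte list had r = 0.677 with Fos (exact permutation p = 0.130, rho = 0.333, exact permutation p = 0.417, adjusted p = 0.611), and -0.032 without control replicate 3 and FS replicate 3. A log2 array value has no true zero, so none of these markers can be called absent. The part of these cell types in the co-variation of Fos and Junb was not tested.

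Among all 16940 other genes, Junb ranked 68th by its correlation with Fos and Fos 39th by its correlation with Junb, so that 0.396% and 0.224% of genes had a higher r. The genes most like Fos over the 10 rats were Letm2 (r = 0.940), Gab1 (0.924) and Kdm6b (0.920). Those most like Junb were Or8g20b (0.928), Pias2 (0.914) and Or12d2 (0.911). For Fosb they were Slc46a2 (r = 0.933), Caap1 (0.918) and Rassf7 (0.908), and for Fosl1 Nkx6-3 (0.961), Or4a15b (0.954) and Wdr62 (0.947). The genes most like Jun were Rnf24 (r = 0.969), Decr1 (0.957) and Gucy1a1 (0.950), and those most like Jund were Rpl31l7 (0.975), Il17re (0.961) and Myl12a (0.952). For Atf3 they were Kcne4 (r = 0.964), Bok (0.961) and Apobec3 (0.954), and for Batf Mbd3l2 (0.982), Rps10-ps21 (0.977) and Sct (0.963). Every member had genes this close, including the members with dim probe sets, and with 10 rats and 16940 genes these correlations are given as a description with no test. Outside the pair of Fos and Junb, the best rank of a member was 534, for Atf3 among the genes most like Jund.

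The genes around AP-1 were counted by role, on lists written from general knowledge, and in limma 0 genes of any of them had an adjusted p under 0.05. Of 19 tested genes for other basic leucine zipper partners, 9 had a positive and 10 a negative log2 fold change (median -0.0016). At an unadjusted p under 0.05, 1 was higher, Nrl (0.11, adjusted p = 0.504), a factor of rod photoreceptors, and 1 lower, Crem (-0.11, adjusted p = 0.499), which encodes a modulator of cAMP response elements. These 2 of 19 are near the 9.84% of all probe sets. Of 29 upstream kinases, phosphatases and factors, 11 were above and 18 below 0 (median -0.012), with Srf lowest by moderated t (-0.13, unadjusted p = 0.0130, adjusted p = 0.414) and Dusp1 highest. Of 13 genes for turnover and cofactors of AP-1, 3 were above and 10 below 0 (median -0.022), and 0 had an unadjusted p under 0.05. Nfatc2 (0.026, adjusted p = 0.892) and Hdac3 (-0.038, adjusted p = 0.717) were at the ends.

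Of 29 genes reported elsewhere as AP-1 targets, in various tissues, 13 were above and 16 below 0 (median -0.0053). The one with the highest moderated t, Mmp3, a matrix metalloproteinase, was at 5.74, 5.72, 5.71, 5.67 and 5.75 in control replicates 1 to 5 and at 5.83, 5.79, 5.75, 5.99 and 5.82 in FS replicates 1 to 5. The groups touched at 5.75 to 2 decimals and were apart in the unrounded values (log2 fold change 0.12, unadjusted p = 0.0222, adjusted p = 0.445 in limma), which held for 0.972% of all probe sets in that direction. Sprr1a, a gene of injured neurons, was the other at an unadjusted p under 0.05 (0.17, adjusted p = 0.449 in limma), so 2 of 29 reached it, against 9.84% of all probe sets. The lowest was Cd44 (-0.14, adjusted p = 0.505). Of the 23 other activity-induced genes, 10 were above and 13 below 0 (median -0.066), and at an unadjusted p under 0.05 there were 1 higher and 5 lower, against 5.75% and 4.09% of all probe sets. The one higher was Ier2, an immediate early gene, at 6.16, 6.35, 6.17, 6.13 and 6.27 in control replicates 1 to 5 and 6.33, 6.48, 6.51, 6.38 and 6.31 in FS replicates 1 to 5 (log2 fold change 0.19, unadjusted p = 0.00491, adjusted p = 0.369 in limma). The groups overlapped through control replicate 2. The lowest was Inhba, an activin subunit (-0.27, unadjusted p = 0.00884, adjusted p = 0.388 in limma). The other 4, named after their values were seen, were Egr1 (-0.19, adjusted p = 0.485), Nptx2, a neuronal pentraxin (-0.17, adjusted p = 0.436), Ptgs2, the inducible cyclooxygenase (-0.25, adjusted p = 0.463), and Vgf, a secreted neuropeptide precursor (-0.20, adjusted p = 0.419). In each of the 4 the groups overlapped.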

How the data were processed

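PFC RNA of 10 rats, 5 Stress (here FS) and 5 Control, was measured on Rat Gene 1.0 ST arrays (Affymetrix), with groups and replicate numbers as the sample titles give them. Per the submitters' processing notes the authors used oligo 1.58.0 for RMA, and their deposited log2 values were analysed without further scaling. Precision is limited by the number of arrays. The sources used here give no genome build for the array, and the labels name no batch. Probe sets were named by the platform annotation (18644 with exactly 1 symbol). Of the 8 members, 7 were found by gene identifier in RefSeq (GRCr8) and Fosb by symbol only.

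FS was compared with control in limma 3.58.1 (R 4.3.3) over 18304 probe sets with a mean above 4. Correlations and exact permutation tests were run in Python 3.11.15. Members and lists were chosen with earlier results of these data known. All members are named, with the genes of highest and lowest moderated t in each list and the 3 genes most like each member. In simulated arrays of 18304 probe sets for the comparison of FS with control, noise was independent. Changes of 0.25, 0.5, 1 and 2 on the log2 scale were put into 50 probe sets each, in the same run. There limma recovered 52% of changes of 0.25 and 96% of changes of 0.5, with 5 false calls. It called 0 when nothing was changed. The larger changes in that run ease the adjustment, so the 52% does not carry over to data with 0 calls. The shares are averages over probe sets, and 94.2% of all probe sets had a smaller SD within groups than Atf3. Alternatives changed the filter, normalization, array weights, variance prior, probe sets and rats, and added the replicate number as a block. Same-numbered rats correlated over 0.1, with group means removed, in 2 of 5 pairs only, and the numbers were therefore not treated as a pairing.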

Additional observations from a re-analysis of the deposited data

Results flagged for a closer look

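A rat far from the others of its group was found in 4 of 44 groups of 5 examined, where chance gives about 1 in 20, and in both groups for the interferon-stimulated genes, a list added after the values were seen and therefore left out of that count. Among the AP-1 genes it was 1 of 16 groups, Atf3 in control replicate 5, at 5.96 against 5.45 to 5.54 in the other controls. The mean of the interferon-stimulated genes was highest in the same rat, at 0.763 against -0.224 to -0.0741, and among FS rats in replicate 5, at 0.292 against -0.171 to -0.0614. Choroid plexus markers were at 1.81 in FS replicate 2 against -0.276 to 0.109 in the other FS rats. Oligodendrocyte markers were at -0.353 in control replicate 3 against 0.0369 to 0.192. Astrocyte markers were at 0.0626 in FS replicate 5 against -0.0595 to -0.0249.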

How the results depend on the processing

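Under 20 alternatives, 154 of 158 log2 fold changes of AP-1 genes kept their direction, 0 passed in limma, and the lowest adjusted p was 0.105. Those that turned sign were small: Batf at -0.000514 after quantile normalization, and, when each rat was left out in turn, Fosb (-0.072 to 0.0052), Junb (-0.0051 to 0.083) and Batf (-0.027 to 0.085). Over all probe sets, leaving out rats gave 0 to 1 calls, the 1 without control replicate 2. Members at an unadjusted p under 0.05 numbered 0 with a mean above 6, which drops Atf3 and Batf, 2 after quantile normalization, 2 with array weights, and 0 to 2 when a rat was left out, 2 without control replicate 5. The replicate number as a block changed no call of a member in limma (1803 probe sets at an unadjusted p under 0.05, against 1802).

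Fos and Junb, the 1 pair that passed, was lost in most alternatives: r was 0.800 with group means kept, 0.818 as Spearman's rho, 0.719 after quantile normalization, 0.651 with the replicate number as a block and 0.827 without the rats farthest from the median of Fos, and 0 pairs passed in each. The block leaves too few orders for a single pair to pass readily, so it decides little. Leaving out rats gave 0 to 1 pairs and r from 0.765 to 0.846. It passed with each array centred on its median. Without single rats r ran from -0.578 to 0.0391 for Fos and Fosb, from 0.183 to 0.618 for Fos and Jun, and from -0.659 to -0.210 for Fosb and Junb. The causes were not tested.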
